A study of Mus musculus with 3 samples.

Results

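The mitotic kinesin motors examined here are 10 genes, Kif11, Kif15, Kif4, Kif22, Cenpe, Kif18a, Kif2c, Kif23, Kif20a and Kif20b. Their members were taken as every probe set of the array whose annotation, updated through the gene ID, gives one of these genes as its only symbol, which gave 24 probe sets of 45037 in all and 10 of 18193 named genes. The cells were 4T1, a mouse mammary carcinoma line, and each condition had 1 Affymetrix mouse expression array. The co-culture cells had grown for 1 week in direct contact with MSCs and were then separated from them. The labels do not spell out MSC, which commonly stands for mesenchymal stem cell or mesenchymal stromal cell. The conditioned-medium cells had been kept for 1 week in medium conditioned by MSCs, and the regular-medium cells were cultured in regular medium for a time that the labels do not give. The growth medium common to the 4T1 cells was RPMI with 10% FBS. The labels give neither the source of the MSCs nor the way the cells were isolated. There was 1 array for each condition and therefore no replicate error, test or p-value, and every difference below compares 2 arrays.

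Kinesins are motor proteins that use ATP to move along microtubules or to take their ends apart. Those of mitosis push the spindle poles apart, carry and align chromosomes, trim microtubules at kinetochores and build the central spindle on which a dividing cell is pinched apart. Their transcripts are made mainly in late S phase, G2 and mitosis, so in a bulk sample their level follows the share of dividing cells as well as the amount per cell. On these arrays fewer dividing cells and less RNA per dividing cell cannot be told apart.

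The promoters of the members are shown first, because genes of this class are known to carry CCAAT boxes, bound by NF-Y, and the cell cycle homology region, bound by the MuvB complexes that time mitotic transcription. RefSeq promoter windows (build GRCm38.p6, 250 bases before to 50 bases after a gene start) were matched by symbol for 9 of the 10 members, with Kif20a the one without. The letters CCAAT and TTTGAA were searched on both strands, and no match of one overlapped a match of the other in these windows. In the stretches below, 80 bases before the start and 30 bases from it, capitals mark CCAAT (or ATTGG on the other strand) and TTTGAA (or TTCAAA). The first 5 hold TTTGAA close to the start, and Cenpe and Kif18a are shown because their windows do not. The stretch shown lies at chr19:37376302-37376411 (plus strand) for Kif11, chrX:100625985-100626094 (plus strand) for Kif4 and chr7:127042391-127042500 (minus strand) for Kif22. It lies at chr9:61946770-61946879 (minus strand) for Kif23 and chr19:34922278-34922387 (plus strand) for Kif20b. For Cenpe it lies at chr3:135212483-135212592 and for Kif18a at chr2:109280658-109280767, both on the plus strand.
Kif11: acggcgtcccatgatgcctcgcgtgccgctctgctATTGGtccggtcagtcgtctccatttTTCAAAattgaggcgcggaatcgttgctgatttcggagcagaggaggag
Kif4: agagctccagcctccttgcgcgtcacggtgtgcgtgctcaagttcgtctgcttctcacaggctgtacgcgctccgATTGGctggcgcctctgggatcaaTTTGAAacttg
Kif22: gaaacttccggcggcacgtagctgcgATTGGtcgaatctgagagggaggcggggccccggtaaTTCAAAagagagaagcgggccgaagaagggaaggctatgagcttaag
Kif23: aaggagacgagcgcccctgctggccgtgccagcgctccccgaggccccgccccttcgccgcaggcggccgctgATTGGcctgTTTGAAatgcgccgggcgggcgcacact
Kif20b: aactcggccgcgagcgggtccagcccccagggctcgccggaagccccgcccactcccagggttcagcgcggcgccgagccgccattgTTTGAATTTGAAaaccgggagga
Cenpe: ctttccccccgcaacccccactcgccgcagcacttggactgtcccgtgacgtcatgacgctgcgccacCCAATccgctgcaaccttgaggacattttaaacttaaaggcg
Kif18a: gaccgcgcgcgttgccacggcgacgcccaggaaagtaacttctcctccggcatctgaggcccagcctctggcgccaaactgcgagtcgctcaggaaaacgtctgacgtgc

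TTTGAA stood in the windows of 7 of the 9 members, against 17.9% of all 32851 promoter windows. It stood within 50 bases of the start in 6 of the 9, against 4.94% of all windows. Nearest to the start, the match began at -19 in Kif11 and Kif15, with the start base counted as 0, at -17 in Kif22, at 2 in Kif23 and at 19 in Kif4, and Kif20b held a direct pair of matches at 7 and 13. CCAAT stood in 5 of the 9 windows, against 37.4% of all, and both motifs stood in the windows of Kif11, Kif4, Kif22 and Kif23, 4 of the 9, against 6.95% of all. The only match in Kif2c began at -103, in a window whose annotated start lies 3852 bases inside the outer end of the gene. Of the letters searched, the Cenpe window held CCAAT alone, at -12, and the Kif18a window held neither motif. Other forms of the cell cycle homology region were not searched. The lists below are counted by gene, with a match in any window of the gene, and 5466 of all 27025 genes had one. Among related genes, TTTGAA stood in the windows of 11 of 18 binding partners of these motors, 3 of 22 kinesins of transport and other roles and 3 of 18 DNA replication genes. It also stood in the windows of 3 of 6 other mitotic kinesins, 4 of 8 kinases that act on the motors and 7 of 16 regulators of mitotic transcription. The same held for 1 of 12 tubulins and 1 of 15 genes of the dynein and dynactin list. Lists with no tie to mitosis held it as well, in 5 of 11 MSC and fibroblast markers, 1 of 12 epithelial markers and 1 of 5 macrophage and leukocyte markers. Within 50 bases of the start it stood in 11 of 18 binding partners, 4 of 8 kinases, 2 of 6 other mitotic kinesins and 4 of 16 regulators. It stood there in 2 of 22 transport kinesins, 1 of 18 DNA replication genes and 2 of 11 MSC and fibroblast markers. No tubulin, dynein or dynactin, epithelial or leukocyte gene had it there, against 1546 of all 27025 genes. These matches describe letters and not bound sites.

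**Figure D1:**
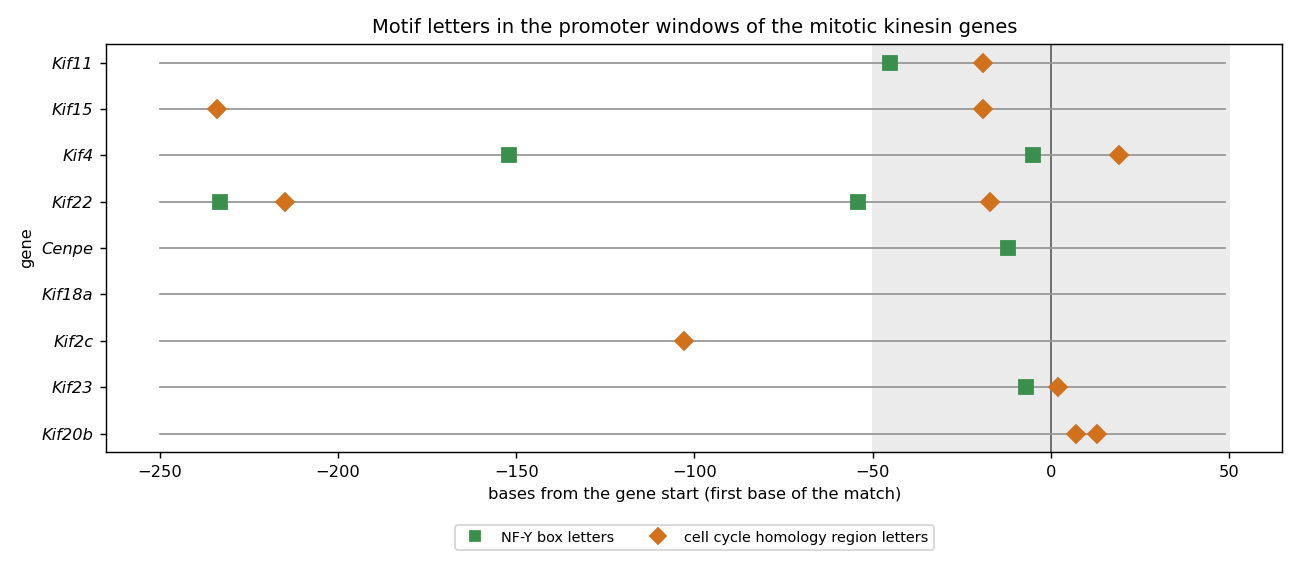
Positions of the NF-Y box letters (green squares) and the cell cycle homology region letters (orange diamonds) in the promoter windows of 9 members, as bases from the gene start on the horizontal axis, with 50 bases to either side of the start shaded. In 6 of the 9 windows an orange diamond lies in the shaded stretch, and the Kif18a window holds no match.

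Each array gave a MAS5 signal, a linear brightness scaled array by array, for every probe set. Signals under 42.4, the pooled 40th percentile, were raised to that floor and log2 was then taken, and a gene or probe set that reached 149.3, the pooled 60th percentile, on at least 1 array is called measured or bright. The median signal was 72.5 in co-culture, 71.6 in conditioned medium and 79.8 in regular medium. Markers of the labelled cell type were bright: 17 of 18 epithelial genes were measured, and the signals of all 18 summed to 110847.7 in co-culture, 88218.3 in conditioned medium and 85552.8 in regular medium. Of 18 MSC and fibroblast markers on the array 8 were measured, and the signals of all 18 summed to 24282.8, 33899.2 and 32516.0 in the same order, of which Vim, bright in regular medium too, gave 16658.3, 29070.4 and 27902.2. Without Vim the rest of that sum was highest in co-culture. In co-culture 5 of the 18 lay at or below the floor, namely Col1a1, Dcn, Thy1, Pdgfrb and Mgp. This compares with 9 in conditioned medium and 7 in regular medium. Of 8 macrophage and leukocyte markers 3 were measured, and the signals of all 8 summed to 887.6, 772.1 and 812.9.

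The first comparison, co-culture against regular medium, asked where the motors' transcripts stood in cells taken from contact with MSCs. All 9 measured members, and all 18 of their bright probe sets, had lower signals in co-culture. The median log2 difference over the 9 genes was -0.87, with a range of -2.00 to -0.43, beside a median of 0.07 over all 9452 measured genes. By the rule of at least 2-fold, with the brighter signal at 149.3 or more, Kif11 and Kif20a were lower, 2 of 9, against 2.76% of all genes tested, and none was higher, against 5.81%. Signals below those of regular medium were found for 44.0% of all genes tested and 48.9% of all bright named probe sets. The number of kinesins past a threshold depended on the probe set and the fold. It was 6 of 9 at 1.5-fold, against 9.86% of all genes, and 1 of 9, Kif11, at 3-fold, against 0.617%. At 2-fold it was 4 without probe sets marked _x_at or _s_at, against 3.06% of all genes, and 4 by the mean of a gene's bright probe sets, against 3.10%. It was 3 by the median of all probe sets of a gene, against 4.11%. By the bright probe set with the smallest difference it was 1, Kif20a, which has a single probe set, against 2.09%. Counted by probe set, 6 of the 18 bright ones were at least 2-fold lower, against 5.49% of all bright named probe sets, and they belonged to 5 genes, Kif11, Kif22, Kif2c, Kif20a and Kif20b. Each gene is represented below by its probe set with the highest mean signal, and its other bright probe sets are given beside it. On the same arrays the median log2 difference was 0.77 for the 8 measured MSC and fibroblast markers and 0.38 for the 17 measured epithelial markers. Bgn, a matrix proteoglycan, had 181.5 in co-culture, 57.8 in conditioned medium and 12.3 in regular medium, at least 4.28-fold higher in co-culture than the floor. Postn, a matrix protein of fibroblasts, had 1802.6, 949.5 and 765.6 in that order, a difference of 1.24, and was thus bright in regular medium too. Pdgfra and Col1a2 were each at 0.89. Of the 8 measured markers of this kind 6 were higher and 2 lower in co-culture, against 44.0% of all genes lower. The 2 lower ones were Vim at -0.74 and Col6a2, a collagen chain named after its value was seen, at -0.59. Among epithelial genes Krt14, a basal keratin, was at -1.47 and St14, a membrane protease, at 1.03. The part of RNA from MSCs in the kinesin result was not tested.

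**Figure D2:**
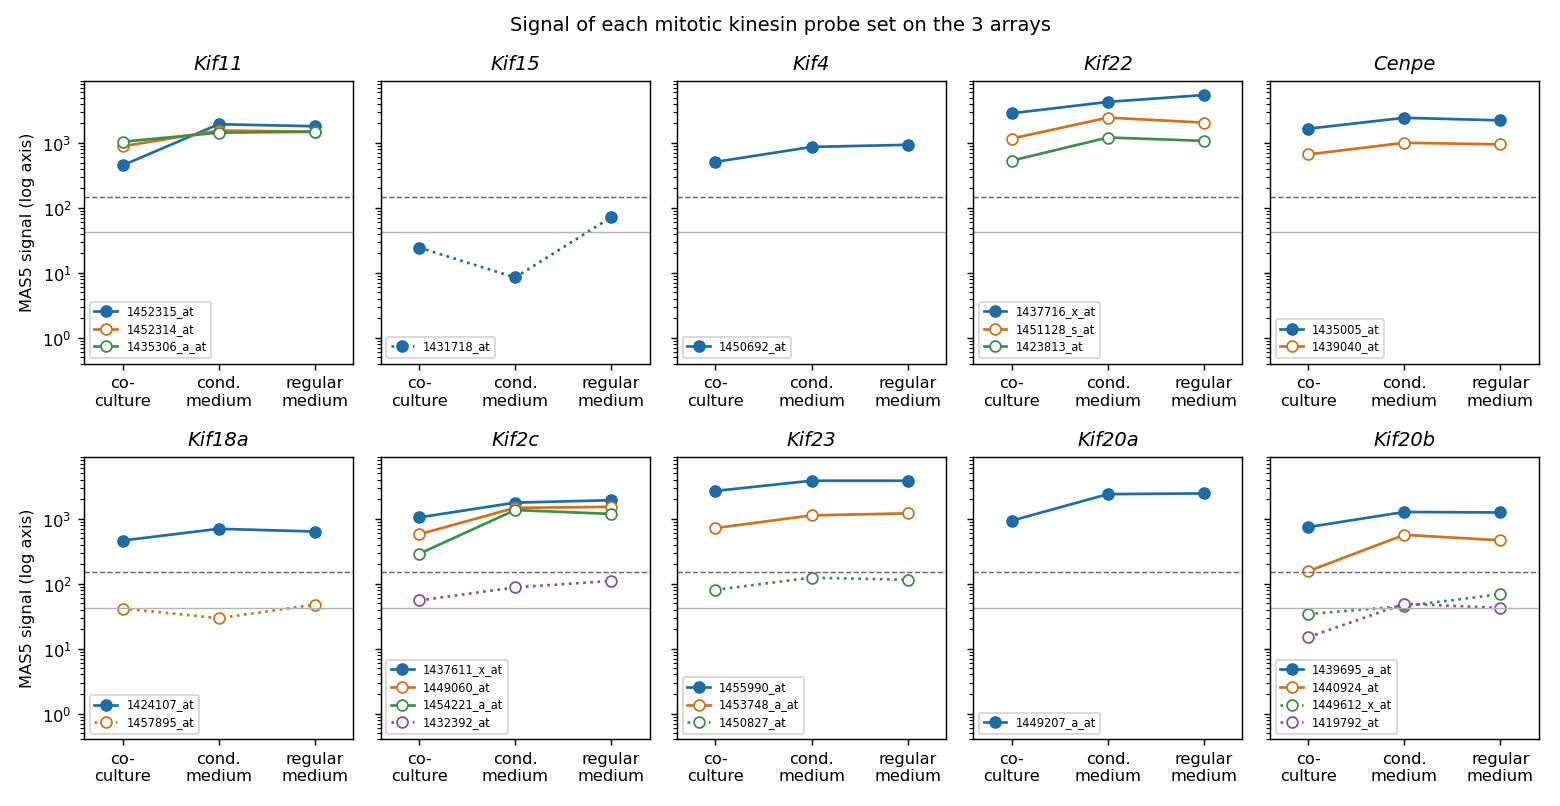
MAS5 signal on a log axis for each of the 24 probe sets on the co-culture, conditioned-medium and regular-medium arrays, 1 panel per gene. Filled points are the probe set that stands for the gene, dotted lines are probe sets that never reached 149.3 (dashed horizontal line), and the solid grey line is the floor of 42.4. In all 18 bright probe sets the co-culture point lies lowest.

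The motors that set up the bipolar spindle were Kif11 and Kif15. Kif11, also called Eg5, crosslinks antiparallel microtubules and slides the poles apart, and inhibitors of it arrest cells with monopolar spindles. Its brightest probe set, 1452315_at, had a signal of 452.9 in co-culture, 1945.7 in conditioned medium and 1811.2 in regular medium. That is a log2 difference of -2.00 for co-culture against regular medium, a fold of 4.00 and the widest of the 9 genes by the brightest probe set. By the mean of bright probe sets Kif2c at -1.44, Kif20a at -1.39 and Kif20b at -1.16 stood further from regular medium than Kif11 at -1.08. The other Kif11 probe sets stood much nearer to regular medium. Probe set 1452314_at had 891.6, 1558.0 and 1495.9 in the same order, a difference of -0.75, and 1435306_a_at had 1047.1, 1441.5 and 1489.7, a difference of -0.51. All of them were lower in co-culture, but the 4.00-fold value belongs to 1 of 3, and the other 2 were each under 2-fold. Kif15, a motor that can hold the bipolar spindle when Kif11 is inhibited, was represented by the probe set 1431718_at with 24.6 in co-culture, 8.5 in conditioned medium and 72.0 in regular medium. It reached 149.3 on no array, so Kif15 counts as not measured and no fold is given.

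The motors that act along chromosome arms, also called chromokinesins, were Kif4 and Kif22. Kif4 binds chromatin and, with Prc1, sets the length of the overlap in the central spindle. It had 511.8 in co-culture, 870.0 in conditioned medium and 938.0 in regular medium, a log2 difference of -0.87 against regular medium. Kif22, also called Kid, pushes chromosome arms away from the poles. Its brightest probe set, 1437716_x_at, had 2869.5, 4296.2 and 5478.0 in that order, a difference of -0.93. Probe set 1451128_s_at, with 1171.7, 2457.9 and 2060.7, had -0.81, and 1423813_at, with 536.4, 1215.5 and 1079.0, had -1.01. The 3 Kif22 probe sets thus lay within 0.19 of each other, and 1 of them passed the 2-fold rule while the 2 others fell short of it. RefSeq lists the pseudogenes Kif22-ps and Kif4-ps, and the suffixes _x_at and _s_at mark probe sets that may also bind other transcripts, so part of these signals may come from near copies.

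The motors of kinetochores and microtubule ends were Cenpe, Kif18a and Kif2c. Cenpe carries chromosomes to the spindle equator and takes part in checkpoint signalling. It had 1660.9 in co-culture, 2444.8 in conditioned medium and 2232.2 in regular medium by 1435005_at, a log2 difference of -0.43, and 667.0, 1007.6 and 953.1 by 1439040_at, a difference of -0.51. Kif18a, which damps the oscillation of aligned chromosomes, had 461.4, 698.9 and 634.9 by 1424107_at, a difference of -0.46, while its other probe set reached no more than 47.5. By their brightest probe sets Cenpe and Kif18a had the smallest differences of the 9 genes. Kif2c, or MCAK, does not walk but takes microtubule ends apart and corrects faulty attachments. Its probe sets spread widely in co-culture. The brightest, 1437611_x_at, had 1047.8, 1767.1 and 1928.3, a difference of -0.88. Probe set 1449060_at had 575.3, 1469.6 and 1522.7, a difference of -1.40, and 1454221_a_at had 288.1, 1359.0 and 1185.5, a difference of -2.04. Of its 3 bright probe sets Kif2c thus missed the 2-fold rule by the brightest and met it by both others, and their mean was -1.44. The fourth Kif2c probe set, 1432392_at, stayed under 149.3 on every array, with 55.2, 87.7 and 110.2.

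The motors of the central spindle and cytokinesis were Kif23, Kif20a and Kif20b. Kif20a, also called MKLP2, brings the chromosomal passenger complex from chromosomes to the central spindle. Its single probe set, 1449207_a_at, had 934.3 in co-culture, 2390.2 in conditioned medium and 2451.8 in regular medium. The log2 difference from regular medium was -1.39, or 2.62-fold lower. Kif20a was the only one of the 9 that was at least 2-fold lower by every bright probe set, but it had only this 1 to pass. Kif23, or MKLP1, forms the centralspindlin complex with Racgap1. It had 2679.0, 3843.3 and 3844.4 by 1455990_at, a difference of -0.52, and 717.9, 1125.0 and 1208.1 by 1453748_a_at, a difference of -0.75. A dim Kif23 probe set, 1450827_at, had 80.5, 123.7 and 114.6. Kif20b, also called MPP1, acts late in cytokinesis at the midbody. Its brighter probe set, 1439695_a_at, had 743.9, 1269.9 and 1247.2, a difference of -0.75, and 1440924_at had 155.7, 565.1 and 464.8, a difference of -1.58. The other Kif20b probe sets never exceeded 68.9. Co-culture was lowest for all 3 genes, and the conditioned-medium and regular-medium signals were near each other.

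How far probe sets of a gene disagree shows how much a value depends on the probe set, and it also holds differences between transcript forms. Probe sets read the same RNA on the same arrays, so their agreement does not measure the spread between cultures. Among the 1166 genes with 3 bright probe sets, the median range of the log2 difference between co-culture and regular medium was 0.66. The range was 1.49 for Kif11, and 8.75% of those genes had a wider one. It was 1.16 for Kif2c, with 17.6% wider, and 0.19 for Kif22, with 92.5% wider. Among the 2646 genes with 2 bright probe sets the median range was 0.35, and it was 0.83 for Kif20b, 0.23 for Kif23 and 0.09 for Cenpe. In this comparison the probe sets thus agreed closely on the size of the difference for Kif22, Cenpe and Kif23 and poorly for Kif11, Kif2c and Kif20b. The direction was the same in all. For Kif22 the range was wider in the other comparisons, 0.60 in conditioned medium against regular medium and 0.60 in co-culture against conditioned medium. Kif4, Kif18a and Kif20a had 1 bright probe set each.

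**Figure D3:**
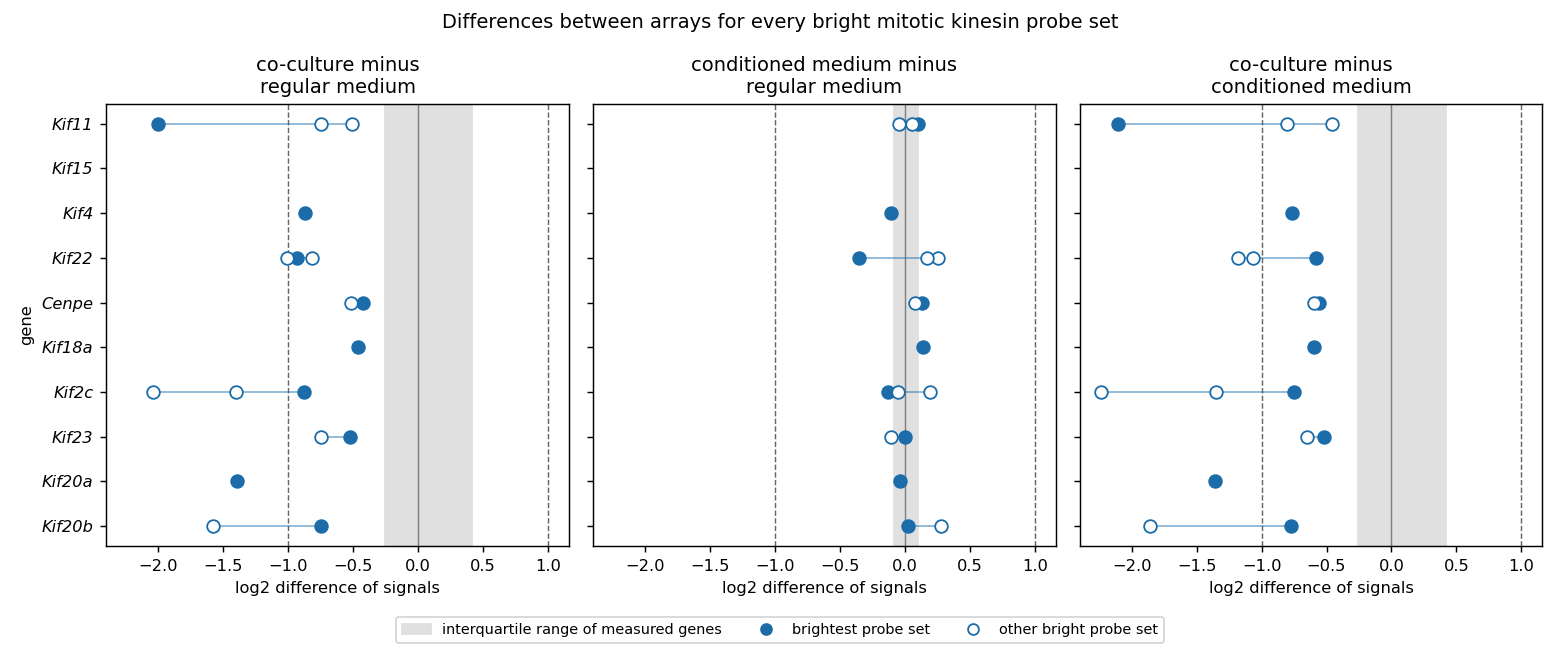
Log2 difference of signals for the 18 bright probe sets in each comparison of 2 arrays, by gene, with the brightest probe set filled, the interquartile range of all measured genes shaded and 2-fold marked by dashed lines. In both comparisons that involve co-culture every point lies left of 0, and the Kif11 points run from -2.00 to -0.51 against regular medium.

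The comparison of conditioned medium against regular medium asked the same of cells that met what MSCs release, with no contact. The kinesin signals were close to each other on these 2 arrays. The median log2 difference of the 9 genes was -0.0004, with a range of -0.35 to 0.14, beside a median of 0.01 for all measured genes. None of the 9 was at least 2-fold lower, against 0.306% of all genes tested, and none was at least 2-fold higher, against 0.109%. Of the 9 genes 5 were below regular medium, against 46.3% of all genes. Of the 18 bright probe sets 8 were below regular medium, against 47.4% of all bright named probe sets, and 10 above. None of the 18 was at least 2-fold lower, against 0.388%, and all 18 lay within 0.5 on the log2 scale. Kif22 had the widest gap by its brightest probe set, at -0.35, but its other bright probe sets stood at 0.25 and 0.17, so the Kif22 probe sets disagree on direction. Kif11 had 0.10, 0.06 and -0.05 over its probe sets, in the order given above. Scaling each array to one median moved all genes up by 0.16 and the kinesin median to 0.16, a shift that is the same for every gene above the floor.

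Co-culture was also set against conditioned medium, which compares the 2 arrays of cells exposed to MSCs or their products for 1 week. Both this comparison and that with regular medium use the same co-culture array, so their values are not independent. All 9 genes were again lower in co-culture, with a median log2 difference of -0.75 and a range of -2.10 to -0.52, beside 0.07 for all genes. Kif11 at -2.10 and Kif20a at -1.36 were at least 2-fold lower, 2 of 9, against 2.60% of all genes tested, and none was at least 2-fold higher, against 5.83%. Lower signals were found for 44.0% of all genes and 48.6% of bright named probe sets. The count was 6 at 1.5-fold, against 9.95% of all genes, and 1 at 3-fold, against 0.599%. At 2-fold it was 4 without _x_at and _s_at probe sets, against 2.86%, 4 by the mean of bright probe sets, against 2.94%, and 4 by the median of all probe sets, against 4.24%. By the bright probe set with the smallest difference it was 1, against 1.93%. By probe set 7 of 18 were at least 2-fold lower, against 5.48% of all bright named probe sets. Kif22 stood at -0.58 by its brightest probe set, at -1.07 by 1451128_s_at and at -1.18 by 1423813_at, and Kif2c ran from -2.24 to -0.75. Since isolation is described for the co-culture cells and no others, contact, isolation and carried-over MSC RNA cannot be told apart.

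Kinesins outside this group behaved unequally in co-culture against regular medium. Of 6 other kinesins with roles in mitosis 4 were measured, and 1 was at least 2-fold lower, against 2.76% of all genes tested. Kif18b, which shortens astral microtubules, had 581.2 in co-culture, 1211.4 in conditioned medium and 1223.7 in regular medium, a log2 difference of -1.07, and with arrays scaled to one median it was at -0.94 and no longer passed. Kif24, a depolymerising kinesin of centrioles, was at -0.84, while Kifc1, a minus-end motor that focuses spindle poles, was at 0.15 and Kif2a, a relative of Kif2c that also works in neurons, at -0.0016. Kif14 and Kif2b were not measured. None of the 16 measured kinesins and light chains of transport and other roles was at least 2-fold apart. Of all genes tested 2.76% were at least 2-fold lower and 5.81% higher. By the median of all probe sets 1 of these kinesins was at least 2-fold lower, against 4.11% of all genes. In co-culture 14 of these kinesins had higher and 2 lower signals, against 44.0% of all genes lower, and their median was 0.30. Klc3, a kinesin light chain, was at 0.84, Kif13a, a transporter of endosomal cargo, at 0.83 and Kif21b at 0.76. Kif7, a ciliary kinesin of hedgehog signalling, at -0.94, and Kif5b, a conventional kinesin heavy chain named here after its value was seen, at -0.14, were the 2 with lower signals. In the same comparison the 18 measured genes of the dynein and dynactin list had a median of 0.10. That list also holds Pafah1b1, Nde1 and Ndel1, which act with dynein and are not subunits. Dync1h1, the dynein heavy chain, had 7676.2, 3413.0 and 3202.2 in the order above, a log2 difference of 1.26 and over 2-fold higher in co-culture by its brightest probe set, while by the bright Dync1h1 probe set with the smallest difference it was at -0.27.

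Partners and track proteins of the motors had lower signals in co-culture. All 21 binding partners were measured and lower, and 7 of these were at least 2-fold lower, against 44.0% of all genes below 0 and 2.76% at least 2-fold lower. By the bright probe set with the smallest difference 4 of the 21 passed, against 2.09% of all genes. With arrays scaled to one median 4 of the 21 passed too, and the share of all genes under that setting is not given here. The median log2 difference of the 21 partners was -0.92. Tpx2, a spindle assembly factor that binds Kif11 and Kif15, had 1357.4 in co-culture, 3249.0 in conditioned medium and 3358.4 in regular medium, a difference of -1.31. Nusap1, a microtubule bundling protein, was at -1.23 and Cep55, an abscission protein, at -1.21. Ska1, a kinetochore protein, was at -1.28 by its brightest probe set but at 0.17 by the median of its probe sets. Racgap1, the partner of Kif23, was at -0.96 and Prc1, the partner of Kif4, at -0.57, both named after their values were seen. All 11 measured tubulins were lower, and 2 of these were at least 2-fold lower, against the same 44.0% and 2.76%. None of the tubulins passed by the median of all probe sets, against 4.11% of all genes, and 1 did without _x_at and _s_at probe sets, against 3.06%. Their median was -0.55. Tubb2a was at -1.26, Tubb4b at -1.17 and Tubg1, the gamma-tubulin of microtubule nucleation, at -0.997, while the bright Tubb4b probe set with the smallest difference was at -0.28.

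Of 9 kinases that act on the motors, 3 were at least 2-fold lower, against 2.76% of all genes, and none was higher, against 5.81%. With arrays scaled to one median 1 kinase was at least 2-fold higher, but that scaling moved the median of all genes up by 0.14. The share of all genes at least 2-fold higher under it is not given here. The median log2 difference of the 9 kinases was -0.74. Plk1, which docks on several of these motors, had 1253.8 in co-culture, 3411.3 in conditioned medium and 3400.4 in regular medium, a difference of -1.44. Ttk, a checkpoint kinase, was at -1.36, Aurkb, the kinase of the chromosomal passenger complex, at -1.26 and Cdk1, the kinase that drives entry into mitosis, at -0.95. Nek6, Nek7 and Nek9, a kinase cascade that acts on Kif11 at the centrosome in human cells, had higher signals in co-culture, at 0.78, 0.32 and 0.87, with Nek7 and Nek9 named after their values were seen. Of 18 measured regulators of mitotic transcription none was 2-fold apart, against the same 2.76% lower and 5.81% higher. Of the regulators 14 were lower, against 44.0% of all genes, and their median was -0.27. By the median of all probe sets 2 regulators were at least 2-fold lower, against 4.11% of all genes. Foxm1, which activates many G2 and mitosis genes, had 588.3, 1104.2 and 1051.6, a difference of -0.84. E2f2 was at -0.88, E2f8 at -0.65 and Rbl2 at -0.58. Of 22 DNA replication genes 21 were lower, against 44.0% of all genes, and 5 were lower by at least 2-fold, against 2.76%, with a median of -0.70. Tk1 was at -1.31, Lig1 at -1.27, Rfc3 at -1.21 and Cdc45 at -1.20, while the bright Cdc45 probe set with the smallest difference was at 0.0883. In conditioned medium against regular medium the medians of these lists lay between -0.06 for the transport kinesins and 0.04 for the binding partners. No list member was 2-fold apart there, against 0.306% of all genes at least 2-fold lower and 0.109% at least 2-fold higher. Cell type markers aside, the widest values there were -0.78 for Kif21b, 0.46 for Ska1 and -0.45 for Tubd1. Kif21b had 53.7 in conditioned medium and 92.2 in regular medium, both under 149.3, so its value compares 2 dim signals. Among the markers Pdgfra was at 0.65 and Cd68 at 0.49.

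**Figure D4:**
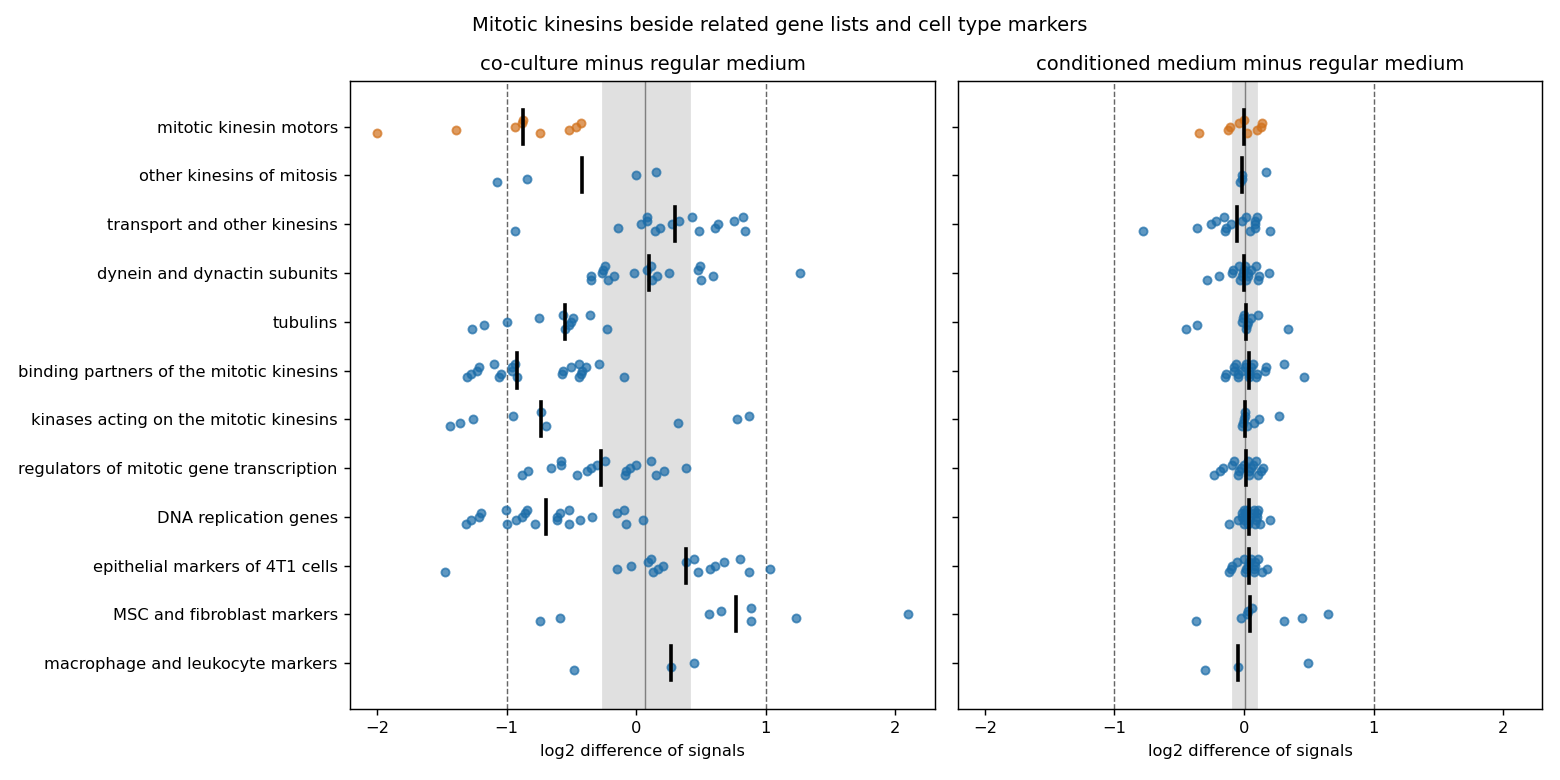
Log2 difference of signals for every measured gene of the mitotic kinesins (orange) and of related lists and cell type markers (blue), co-culture minus regular medium on the left and conditioned medium minus regular medium on the right, with list medians as black bars, the interquartile range of all measured genes shaded and 2-fold marked by dashed lines. The kinesin median is -0.87 on the left and -0.0004 on the right, and the transport kinesin median is 0.30 on the left.

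Other genes were ranked by how near their pair of log2 differences from regular medium lay to the pair of kinesin medians. These medians were -0.87 in co-culture and -0.0004 in conditioned medium. No single kinesin had both values, and the 9 ran from -2.00 to -0.43 in co-culture and from -0.35 to 0.14 in conditioned medium. Id3, Eif4a1, Erp29, Rnf26 and Men1 were nearest, at distances of 0.0018 to 0.0154 over the 3 arrays. A total of 112 of 9443 measured genes lay within 0.1, so many genes lie near these medians, which does not make them alike to any 1 kinesin.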

How the data were processed

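Biotin-labelled cRNA from 4T1 cells was read on Affymetrix mouse expression arrays, per the labels' protocols, with 1 array per condition. The deposited values are linear intensity signals, and the submitters' processing notes name MAS5. Its version and its target level for scaling were not stated there. MAS5 merges the probes of a probe set and scales each array, and the 2% trimmed means were 498.0, 497.7 and 497.8 for co-culture, conditioned medium and regular medium, so no further scaling was applied.

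Of 45037 probe sets, 34945 had 1 symbol, 932 several and 9160 none, and 34741 symbols were updated through the gene ID. Log2 differences were taken after the floor, and each gene took the value of its brightest probe set by mean signal over the 3 arrays. No test was run, since the number of arrays limits the precision. Named list genes were up to 4 measured genes of each list with the widest difference in co-culture and up to 2 in conditioned medium, each against regular medium. To these were added the 5 genes nearest to the pair of kinesin medians. The kinesins, lists and alternatives were chosen with earlier results of these data known. The procedure was tested on simulated data with changes larger than 2-fold in bright genes. That test does not cover differences near 2-fold or probe sets of a gene that disagree. The tools were matplotlib 3.10.9, SciPy 1.17.1, pandas 2.3.3, NumPy 2.4.6 and Python 3.11.15. Protein sequences were not used here.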

Additional observations from a re-analysis of the deposited data

How the results depend on the processing

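Of the 13 alternatives, 6 changed a kinesin value in co-culture against regular medium, by scaling or by choice of probe set. The other 7, on floor, signal filter and fold, left these values as they were and so say nothing about them. All 35 changed values were below 0, and the kinesin median ran from -0.92 to -0.74. Against conditioned medium the median ran from -0.94 to -0.60, and for conditioned medium against regular medium from -0.02 to 0.16. Counts of kinesins called lower did depend on them. Against regular medium, in place of 2 of 9, the count was 4 without _x_at and _s_at probe sets, 6 at 1.5-fold and 1 at 3-fold. The shares of all genes were 3.06%, 9.86% and 0.617% in that order. By the mean of the bright probe sets it was 4, against 3.10%. By the bright probe set with the smallest difference it was 1, Kif20a with its single probe set, against 2.09%. Both of these settings were chosen after seeing the data. Against conditioned medium the counts under those settings were 4, 6, 1, 4 and 1 in the same order. The shares of all genes there were 2.86%, 9.95%, 0.599%, 2.94% and 1.93%. By the median of all probe sets the count was 4, against 4.24%. Kif11 ran from -2.03 to -0.51 against regular medium, Kif2c from -1.72 to -0.74 and Kif20b from -1.16 to -0.61.

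Among the related genes a few reversed with the probe set used. Ska1 was at 0.17 against regular medium by the median of its probe sets and by the one with the smallest difference. By the probe set with the smallest difference Dync1h1 was at -0.27 and Cdc45 at 0.0883 against regular medium, and Dync1h1 was at -0.0527 and Tubb4b at 0.33 against conditioned medium. Tubb4b was at 0.0723 against conditioned medium by the mean of the bright probe sets. The cause of these probe set differences was not tested. Counts of the related lists moved too, and only some of these moves are given beside them. At 3-fold the 2-fold-lower calls of the lists other than the kinesins were all lost. Scaling to one median moved the median of all genes by 0.14 for co-culture and 0.16 for conditioned medium, each against regular medium. No paired analysis was possible because each condition had 1 array.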
